A study of Mus musculus with 17 samples.

Results

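This report follows 8 genes for the uptake of amino acids and transferrin-bound iron, *Slc7a5*, *Slc3a2*, *Slc1a5*, *Slc7a1*, *Slc7a6*, *Slc38a1*, *Slc38a2* and *Tfrc*, in germinal centre (GC) B cells of mice. They are a list of gene symbols drawn up with earlier results of these data known, and all 8 are among the 21848 genes in each of the 4 expression tables used. The study asked how somatic hypermutation relates to the cell cycle when GC B cells divide repeatedly in the dark zone (DZ) without returning to the light zone (LZ), which is called inertial cycling. GC B cells from lymph nodes were marked per mouse with hashtag antibodies, pooled and sequenced by 10X Genomics 5′ single-cell RNA sequencing.

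In the time course, recipient mice (CD45.1/1, primed with OVA in alum) carried transferred B1-8hi B cells, which bind the hapten NP. A minority of these cells expressed the receptor DEC-205 and the rest lacked it (Ly75-/-). All recipients, controls included, were boosted in the footpad with NP-OVA. Anti-DEC-OVA, an antibody that delivers OVA to DEC-205+ B cells and so obtains strong T cell help for them, was given at 7 days after immunization. The list of mice gives 9 mice at 0 h (day 7), 6 untreated and 9 treated mice at 48 h (day 9), and 8 untreated and 7 treated mice at 72 h (day 10), from a larger experiment of 25 mice and a smaller one of 14. The untreated mice were followed in parallel without the antibody. In the sort by CDK2 activity, GC B cells carried the Rosa26 DHB-tdTomato reporter, with or without H2B-GFP, and came from 7 anti-DEC-OVA-treated mice at 72 h. The reporter leaves the nucleus when CDK2 is active, so image-based sorting gave cells with a cytoplasmic reporter (CDK2hi) and cells with a nuclear one (CDK2low) from each mouse. Mice of both sexes, 5 to 12 weeks old, were used. The labels name only a sort of live GC cells, whereas a figure legend of the study calls the time-course cells whose mutations were counted DEC-205+. Whether a treated value here averages over cells with and without DEC-205 was not resolved.

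UMIs (unique molecular identifiers, counts of captured RNA molecules) were added up for each mouse and given as CPM, the count per 1000000 UMIs of that mouse, after scaling by edgeR's TMM factors. CPM within a phase or zone and sums of marker genes were not scaled by these factors. Each mouse of the time course had 286 to 1053 cells and 1876268 to 13027201 UMIs, and each sorted population of a mouse had 278 to 1671 cells and 3988733 to 20175911 UMIs. The 6 GC B cell markers (*Bcl6*, *Fas*, *Mef2b*, *S1pr2*, *Rgs13*, *Gcsam*) summed to between 1230 and 1700 CPM in every mouse, with no marker at 0, and 6 T cell genes summed to between 0.177 and 55.2 CPM. Mice of 1 experiment shared 1 library, and the CDK2hi and CDK2low cells were 1 library each, so the latter libraries and populations cannot be told apart. Pairs of libraries shared between 6 and 94 cell barcodes. In sums over cells, fewer cells using a gene and less RNA per cell cannot be told apart.

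Cells that grow and divide import amino acids and iron through a few proteins of the plasma membrane. *Slc7a5* encodes LAT1, the exchanger of large neutral amino acids such as leucine, which reaches the membrane only as a pair with CD98hc, encoded by *Slc3a2*. *Slc7a6* encodes y+LAT2, which also pairs with CD98hc, and *Slc7a1* encodes CAT1, a carrier of cationic amino acids such as arginine. *Slc1a5* encodes ASCT2 and *Slc38a1* and *Slc38a2* encode SNAT1 and SNAT2, carriers of glutamine and other neutral amino acids. *Tfrc* encodes the transferrin receptor CD71, through which cells take up iron. In activated lymphocytes, LAT1, CD98hc and CD71 are known surface markers of growth under mTORC1 and MYC.

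In the GENCODE vM39 annotation of GRCm39, the build that also underlies the tables, all 8 are protein-coding genes and UMIs were counted over the gene. *Slc7a5* lies on chromosome 8 between 122607884 and 122634433 on the minus strand with 10 exons in its canonical transcript, and *Slc7a6* lies on the same chromosome between 106895139 and 106925346 on the plus strand. *Slc38a1* (chromosome 15, 96469298 to 96541851) and *Slc38a2* (chromosome 15, 96585266 to 96597894) are neighbours on the minus strand, each with 16 exons. *Tfrc* lies on chromosome 16 between 32427556 and 32451612 on the plus strand with 19 exons, and *Slc3a2* on chromosome 19 between 8684245 and 8701108 on the minus strand with 9. *Slc1a5* lies on chromosome 7 between 16515265 and 16532731 and *Slc7a1* on chromosome 5 between 148264220 and 148336848.

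The RefSeq promoter table (build GRCm38.p6, not the build of the expression tables) held 8 windows for 5 of the 8 genes and no entry for *Slc7a5*, *Slc1a5* and *Slc38a1*. The 250 bases before the start are shown for the 3 genes with an entry that differed between treated and untreated mice, because *Tfrc* and *Slc38a2* moved in opposite directions at 48 h and *Slc3a2* fell at 72 h. Capitals mark matches on either strand to the GC box GGGCGG or to CCAAT. The windows are *Slc3a2* chr19:8713898-8714147 (minus strand), *Slc38a2* chr15:96699729-96699978 (minus strand), and for *Tfrc* the upstream start, chr16:32608646-32608895, and the downstream start, chr16:32608872-32609121 (plus strand).
Slc3a2: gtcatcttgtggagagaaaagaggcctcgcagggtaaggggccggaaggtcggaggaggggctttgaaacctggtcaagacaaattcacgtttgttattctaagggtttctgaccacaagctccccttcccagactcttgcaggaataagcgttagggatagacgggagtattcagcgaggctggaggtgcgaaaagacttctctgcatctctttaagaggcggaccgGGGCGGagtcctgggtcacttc
Slc38a2: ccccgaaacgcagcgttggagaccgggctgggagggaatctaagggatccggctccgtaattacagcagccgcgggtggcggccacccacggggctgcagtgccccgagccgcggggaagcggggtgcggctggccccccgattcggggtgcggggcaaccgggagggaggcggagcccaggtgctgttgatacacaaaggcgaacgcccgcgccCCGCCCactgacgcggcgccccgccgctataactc
Tfrc upstream start: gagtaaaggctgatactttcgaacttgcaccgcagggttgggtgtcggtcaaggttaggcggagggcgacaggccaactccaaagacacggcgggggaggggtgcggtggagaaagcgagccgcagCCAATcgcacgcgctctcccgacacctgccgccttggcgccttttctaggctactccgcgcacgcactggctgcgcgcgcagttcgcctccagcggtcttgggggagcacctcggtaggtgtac
Tfrc downstream start: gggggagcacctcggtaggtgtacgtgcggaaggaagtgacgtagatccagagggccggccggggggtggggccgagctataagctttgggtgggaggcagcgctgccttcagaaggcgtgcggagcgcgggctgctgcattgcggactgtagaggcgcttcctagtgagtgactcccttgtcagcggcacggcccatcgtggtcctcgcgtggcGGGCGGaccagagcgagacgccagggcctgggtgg
A GC box began 22 bases before the start of *Slc3a2*, 35 bases before that of *Slc38a2* and 35 bases before the downstream start of *Tfrc*, and 32.7% of 32851 promoter windows of this length hold one. CCAAT occurred in the upstream *Tfrc* window alone among the 8 windows, at 124 bases before the start, and occurs in 33.8% of all windows. None of the 8 windows held the E-box CACGTG, found in 6.02% of all windows, or TGATGNAA, the core of the amino-acid response element bound by ATF4, found in 3.45%. The gene that rose and the gene that fell thus both carry a GC box at the same distance in these windows.

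At 48 h, 3 of the 8 genes differed between treated and untreated mice. *Slc7a5* was 1.24-fold and *Tfrc* 1.22-fold higher after anti-DEC-OVA, and *Slc38a2* was 0.882-fold its untreated level. The other 5 genes did not pass the test. Of all 10215 genes tested, 47.2% were called at 48 h (24.7% higher, 22.5% lower; edgeR's quasi-likelihood test, Benjamini-Hochberg adjusted p under 0.05), so 3 of 8 is close to the share of all genes and is no feature of these genes as a set.

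*Slc7a5*, the LAT1 gene, stood between 33.7 and 41.8 CPM (median 39.7) in the 6 treated mice of the larger experiment, and at 29.5, 26, 26.6 and 31 CPM in its 4 untreated mice. These did not overlap. In the smaller experiment the 3 treated mice had 27.9, 26.8 and 24.5 CPM and the 2 untreated mice 27.1 and 24.6 CPM, so there the groups lay on top of each other. With both experiments in 1 fit, the log2 fold change was 0.31 (SE 0.0985, n = 9 and 6, adjusted p = 0.00928 by edgeR). It was 0.43 in the larger experiment alone (adjusted p = 0.00236 by edgeR) and 0.02 in the smaller one alone (adjusted p = 0.939 by edgeR), so the call rested on the larger experiment.

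*Tfrc*, the CD71 gene, stood between 37.2 and 49.2 CPM (median 41.7) in treated mice of the larger experiment, against 33.2, 31.9, 35.4 and 40.5 CPM in untreated mice. In the smaller experiment it stood at 61.3, 56.9 and 54.1 CPM against 51.1 and 41.4 CPM. Treated mice were above untreated ones without overlap in the smaller experiment, and overlapped with 1 untreated mouse in the larger one. The log2 fold change was 0.29 (SE 0.0737, adjusted p = 0.00135 by edgeR), with 0.26 and 0.30 in the larger and smaller experiments alone (adjusted p = 0.0224 and 0.0516 by edgeR). The call was also lost without the experiment term, and it held in 7 of 9 alternatives. Erythroid cells also use much *Tfrc*: 7 erythroid genes summed to between 2.66 and 15.8 CPM over all groups, with 3 or 4 of the 7 at 0 in a group, and to 3.1 to 9.12 CPM in treated and 2.98 to 8.31 CPM in untreated mice at 48 h.

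*Slc38a2*, the SNAT2 gene, stood between 59.2 and 69 CPM (median 63.5) in treated mice of the larger experiment against 81.2, 74.5, 72.6 and 58.7 CPM in untreated mice, where 1 untreated mouse was below all treated ones. In the smaller experiment the 3 treated mice (82.4, 89.1 and 86.1 CPM) were all below the 2 untreated mice (91.7 and 105 CPM). It fell by 0.18 on the log2 scale (SE 0.0546, adjusted p = 0.00602 by edgeR), and the fall did not pass with B1-8hi cells alone, without the experiment term or in the smaller experiment alone, with fold changes from -0.21 to -0.15 over the 9 alternatives.

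The remaining members gave small differences at 48 h. *Slc3a2*, whose product pairs with LAT1, had a log2 fold change of -0.095 (95% interval -0.216 to 0.026, adjusted p = 0.209 by edgeR), and was not called where *Slc7a5* was; the difference between these 2 genes was not tested. *Slc1a5* (0.02), *Slc7a1* (0.07), *Slc7a6* (-0.009) and *Slc38a1* (-0.01) had adjusted p-values from 0.395 to 0.932 by edgeR. Their intervals lay within 0.2 log2 units of 0.

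**Figure D1:**
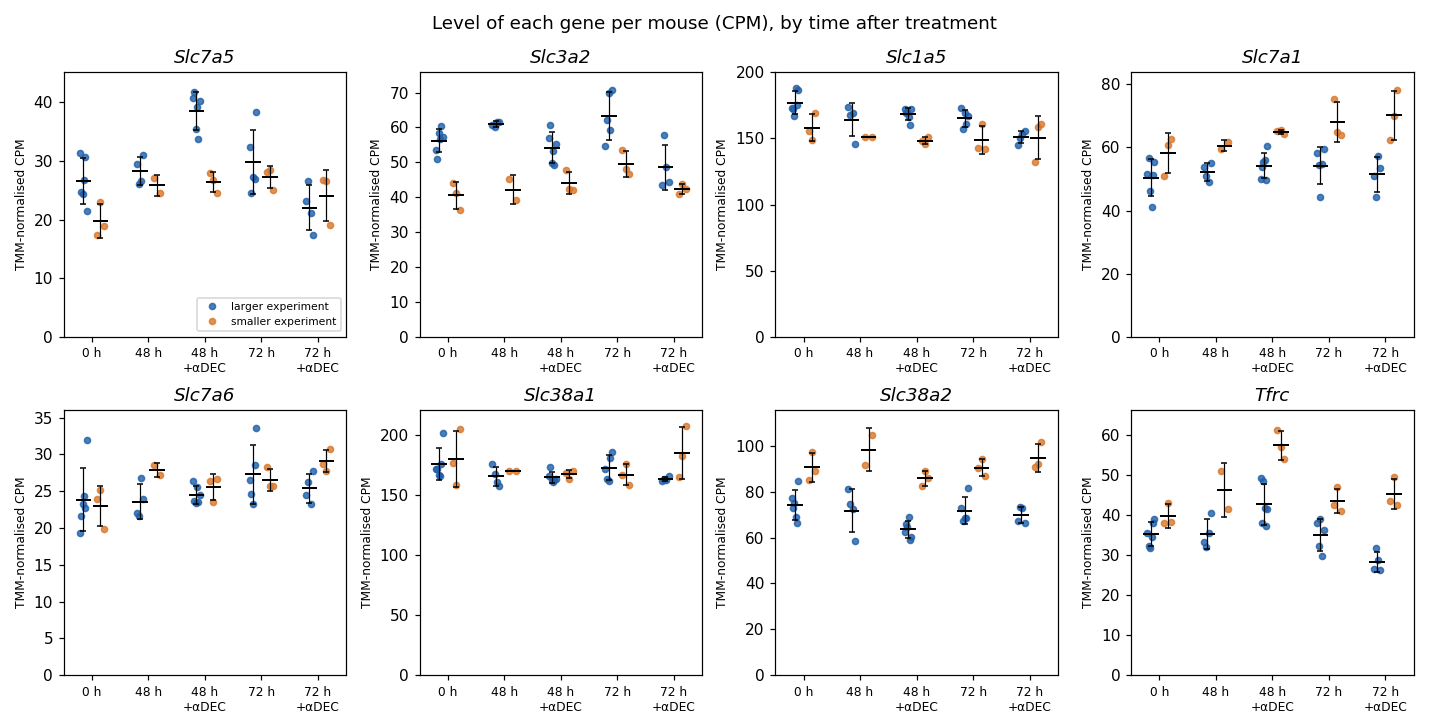
TMM-normalised CPM of each gene (y axis, linear, from 0) in every mouse (points) by time and treatment (x axis; +αDEC, anti-DEC-OVA) in the larger (blue) and smaller (orange) experiments, with black bars for the mean ± SD of each experiment. *Slc7a5* stands at 33.7 to 41.8 CPM in the treated mice of the larger experiment at 48 h, above the untreated ones, and *Tfrc* is high at 48 h in both experiments.

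Treated cells held more RNA at 48 h, which CPM removes. The median UMIs per cell were 9970 to 14300 in treated mice and 5050 to 7410 in untreated mice. Counted as UMIs per cell, all 8 genes were higher in every treated mouse than in every untreated mouse of the same experiment, but so were 78.3% of all genes tested. *Tfrc* reached a mean of 0.64 UMIs per cell against 0.31 in the larger experiment (2.05-fold) and 0.77 against 0.36 in the smaller one (2.15-fold). *Slc7a5* reached 0.57 against 0.25 (2.31-fold) and 0.35 against 0.2 (1.77-fold). For *Slc38a2* the ratios were 1.52 and 1.51, so that its fall in CPM stood beside a gain in UMIs per cell. By CPM, none of the 8 genes was above in both experiments without overlap, where 13.2% of all genes were, and none was below, where 9.76% were.

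**Figure D2:**
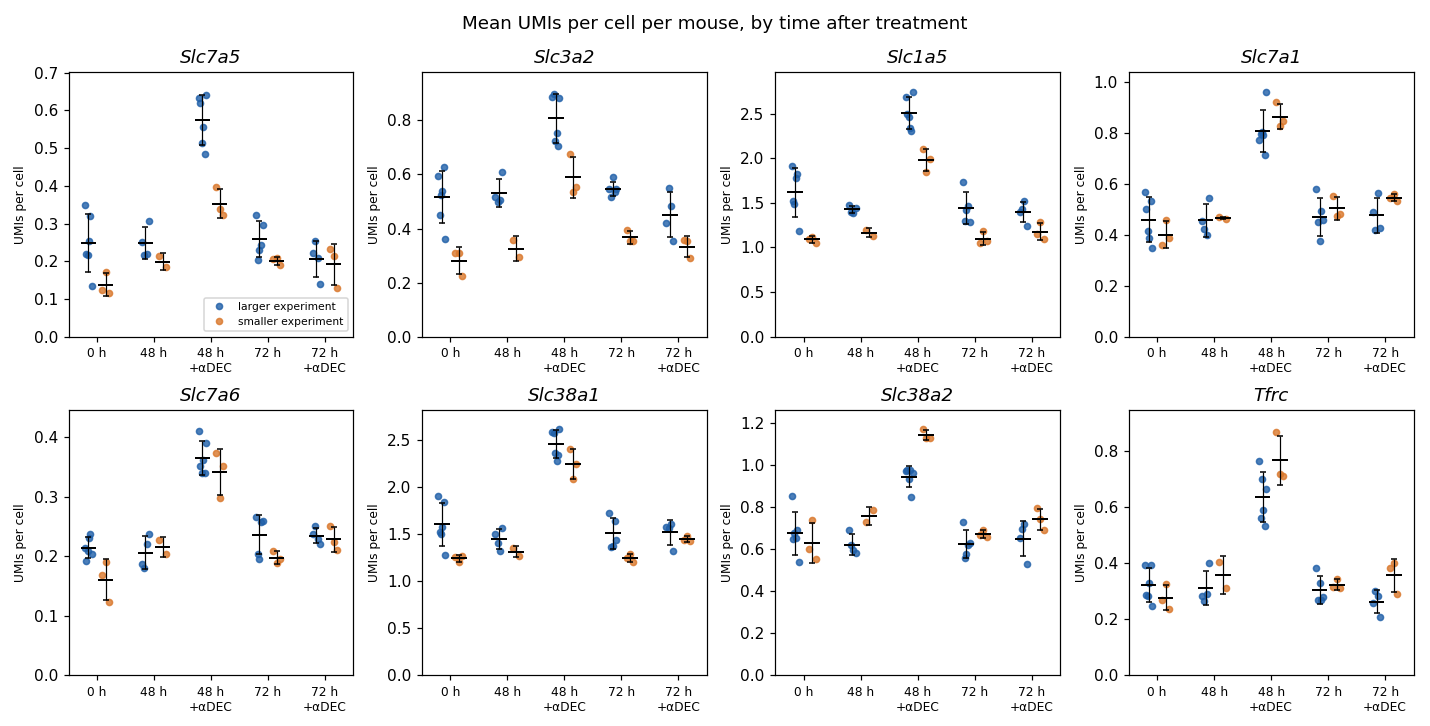
Mean UMIs per cell (y axis, linear, from 0) of each gene in every mouse (points; larger experiment blue, smaller orange) by time and treatment (x axis; +αDEC, anti-DEC-OVA), with black bars for the mean ± SD. All 8 genes are highest in treated mice at 48 h, and at 72 h treated and untreated mice mostly overlap.

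With every cell thinned to 2000 UMIs, *Slc7a5* was detected in 5% ± 0.907 of cells of treated mice and 3.85% ± 0.426 of untreated mice at 48 h (SD, n = 9 and 6), and *Tfrc* in 7.46% ± 1.25 and 5.76% ± 1.06. Without thinning these shares were 28.7% and 15.4% for *Slc7a5* and 37% and 21.2% for *Tfrc*. Shallower cells were left out, 167 of treated and 236 of untreated mice. No cell type that lacks these genes was in the sort to set a background for free RNA, so the shares are not read as shares of expressing cells.

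By 72 h the pattern had changed, and *Slc3a2* was the gene that differed. In the larger experiment *Slc3a2* stood at 43.5, 57.7, 48.7 and 44.4 CPM in treated mice and at 54.7, 62.2, 69.9, 59.4 and 70.6 CPM in untreated mice, with 1 treated mouse inside the untreated range. In the smaller experiment the treated mice (41, 43.9 and 42.5 CPM) were all below the untreated mice (53.6, 48.2 and 46.6 CPM). *Slc3a2* fell by 0.33 on the log2 scale (SE 0.0671, n = 7 and 8, adjusted p = 0.000848 by edgeR). It was the 1 member called where 8.93% of all genes were called. In the smaller experiment alone the fold change was -0.23 (adjusted p = 0.521 by edgeR). The call was lost there and without the experiment term, and it held in 7 of 9 alternatives.

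*Slc7a5* had a log2 fold change of -0.33 at 72 h with a wider error (SE 0.112, adjusted p = 0.0589 by edgeR), and *Tfrc* one of -0.16 (adjusted p = 0.243 by edgeR). In the larger experiment alone, *Slc7a5* (-0.45, adjusted p = 0.0255 by edgeR) and *Tfrc* (-0.33, adjusted p = 0.0466 by edgeR) passed the test. In the smaller one alone neither did, with -0.13 for *Slc7a5* (adjusted p = 0.861 by edgeR) and 0.04 for *Tfrc* (adjusted p = 0.959 by edgeR). The other 5 genes, *Slc38a2* among them, had fold changes between -0.08 and 0.005.

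The treatment effect itself changed between 48 h and 72 h for 3 genes. The difference of the 2 effects was 0.64 log2 units for *Slc7a5* (adjusted p = 0.00113 by edgeR), 0.45 for *Tfrc* (adjusted p = 0.0017 by edgeR) and 0.24 for *Slc3a2* (adjusted p = 0.0407 by edgeR), where 31.8% of all genes were called. The call of *Slc3a2* held in 2 of 9 alternatives (0.18 to 0.28, adjusted p from 0.0298 to 0.388 by edgeR or DESeq2). In the larger experiment alone *Slc7a5* (0.88) and *Tfrc* (0.59) passed, and in the smaller one alone none of the 3 did (*Slc7a5* 0.15, *Tfrc* 0.26, *Slc3a2* 0.28). The call of *Tfrc* was also lost without the experiment term. Within treated mice, *Slc7a5* was 0.56 log2 units higher at 48 h than at 72 h (34.5 ± 6.64 against 22.9 ± 3.86 CPM, adjusted p = 1.61e-05 by edgeR) and *Tfrc* 0.49 higher (47.6 ± 8.6 against 35.5 ± 9.5 CPM, adjusted p = 7.27e-07 by edgeR). For *Slc7a5* the smaller experiment alone gave 0.08 (adjusted p = 0.685 by edgeR) and the larger one alone 0.81, while *Tfrc* passed in each. *Slc38a2* was 0.14 lower (adjusted p = 0.0318 by edgeR), a call that held in 4 of 9 alternatives and in neither experiment alone, and 49.7% of all genes were called in this comparison. This comparison shares its treated mice with those above.

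Without treatment no member passed the test. Between 0 h and 48 h none of the 8 was called (lowest adjusted p = 0.526, *Slc1a5*, by edgeR), where 0.117% of all genes were, and 1 of the 8 had an unadjusted p under 0.05. Between 0 h and 72 h none was called either (lowest adjusted p = 0.0514, *Slc3a2*, by edgeR), where 4.09% of all genes were, and 5 of the 8 had an unadjusted p under 0.05. *Slc3a2* had the smallest of these, with 51 ± 8.55 CPM at 0 h and 58.2 ± 9.08 CPM at 72 h (SD, n = 9 and 8, over both experiments, log2 fold change 0.20). The share of all genes with an unadjusted p under 0.05 was not taken, here or within the phases below. Counts of members by unadjusted p therefore do not compare with the shares of all genes called. By DESeq2, none of the 8 was called at 48 h, where 25 of 10215 genes were, and 1 at 72 h, where 497 were.

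The sort by CDK2 activity split the genes further. By TMM-scaled CPM, *Slc7a5*, *Tfrc*, *Slc3a2* and *Slc1a5* were higher in CDK2hi cells, *Slc38a1*, *Slc38a2* and *Slc7a6* were lower, and *Slc7a1* did not differ. Called genes made up 75% of the 10111 tested (36.4% higher, 38.6% lower), so that 7 of 8 is again near the share of all genes.

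*Tfrc* was higher in CDK2hi cells of all 7 mice, at 35.5, 37.6, 33.3, 32.7, 33.5, 42.3 and 34.8 CPM against 27.5, 27.6, 28.8, 27, 25.3, 28.4 and 26.6 CPM in CDK2low cells of the same mice. Every CDK2hi value was above every CDK2low value. The log2 fold change was 0.38 (SE 0.0485, n = 7 pairs, adjusted p = 1.08e-07 by edgeR with the mouse as a block). *Slc7a5* was higher in all 7 mice, at 21.7, 23.3, 27, 21.2, 22.1, 25.9 and 18.6 CPM against 18.9, 16.3, 22.4, 15.7, 19.2, 16.7 and 16.2 CPM. Its populations overlapped across mice but not within any mouse, and the log2 fold change was 0.31 (SE 0.0622, adjusted p = 8.08e-05 by edgeR). Of all genes, 31% were higher in every mouse.

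*Slc38a2* was lower in CDK2hi cells of all 7 mice, at 71.1, 70.3, 71, 72.8, 72.8, 69.1 and 78.1 CPM against 79.7, 78.2, 99.2, 77.6, 91.4, 101 and 85.5 CPM. The CDK2low values were spread over more than 20 CPM, whereas 6 of the CDK2hi values lay within 4 CPM of each other. It fell by 0.27 on the log2 scale (SE 0.0448, adjusted p = 8.2e-06 by edgeR). *Slc38a1*, its neighbour on chromosome 15, was also lower in all 7 mice (161 ± 4.92 against 182 ± 9.34 CPM) and fell by 0.17 (SE 0.0284, adjusted p = 5.86e-06 by edgeR). Of all genes, 30.3% were lower in every mouse. The call of *Slc38a1* was lost in G1 cells alone (adjusted p = 0.0606 by edgeR). Both SNAT genes were thus lower in CDK2hi cells, where the LAT1 and CD71 genes were higher.

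The smaller changes were less even. *Slc3a2* was higher in 5 of 7 mice (44 ± 2.35 against 39.9 ± 4.23 CPM, log2 fold change 0.15, adjusted p = 0.0133 by edgeR), and its call was lost without mouse 5 or mouse 10 (adjusted p = 0.0695 and 0.0814 by edgeR), in B1-8hi cells alone, in G1 cells alone and with DESeq2. *Slc1a5* was higher in 6 of 7 (log2 fold change 0.07, adjusted p = 0.0425 by edgeR), a call that held in 4 of 14 alternatives. Without TMM factors, *Slc1a5* had a lower mean in CDK2hi cells in G1 (114 against 122 CPM), S (125 against 144) and G2M cells (123 against 148). Its direction thus depended on the scale. *Slc3a2* had 43 against 42.5, 41 against 43.1 and 40.5 against 42.3 CPM there. *Slc7a6* was lower in 6 of 7 (23.7 ± 1.43 against 26.2 ± 1.5 CPM, fell by 0.17, adjusted p = 0.00617 by edgeR), and did not pass without mouse 1 (adjusted p = 0.0665 by edgeR) or with DESeq2 (adjusted p = 0.091). In G1 cells alone its sign turned, to a log2 fold change of 0.084 (adjusted p = 0.529 by edgeR). *Slc7a1*, the arginine carrier, was higher in 3 of 7 mice, with a log2 fold change of 0.001 and a 95% interval from -0.088 to 0.09.

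CDK2low cells held more UMIs than CDK2hi cells (median 10600 to 14800 against 8930 to 11700 per cell), and per cell none of the 8 genes had a higher mean in CDK2hi cells. The share of all genes that went this way, or did not overlap, was not taken. The UMIs per cell are therefore not read as a feature of the 8 genes. *Tfrc* had 0.365 ± 0.0356 UMIs per CDK2hi cell and 0.391 ± 0.0364 per CDK2low cell, and *Slc7a5* 0.234 ± 0.0349 and 0.257 ± 0.0477. For both genes the ranges of the populations overlapped, but within mice most CDK2hi values were the lower ones. *Tfrc* was higher in CDK2hi cells of mouse 6 alone (0.422 against 0.361). *Slc7a5* was higher there in mouse 6 (0.257 against 0.212) and mouse 10 (0.233 against 0.229) alone. *Slc38a2* had 0.737 ± 0.0394 and 1.25 ± 0.133, with no overlap between the populations. The rise of *Tfrc* and *Slc7a5* in CDK2hi cells was therefore a rise relative to other RNA, and whether the depth of the 2 libraries or the RNA of the cells set the UMIs per cell was not tested.

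**Figure D3:**
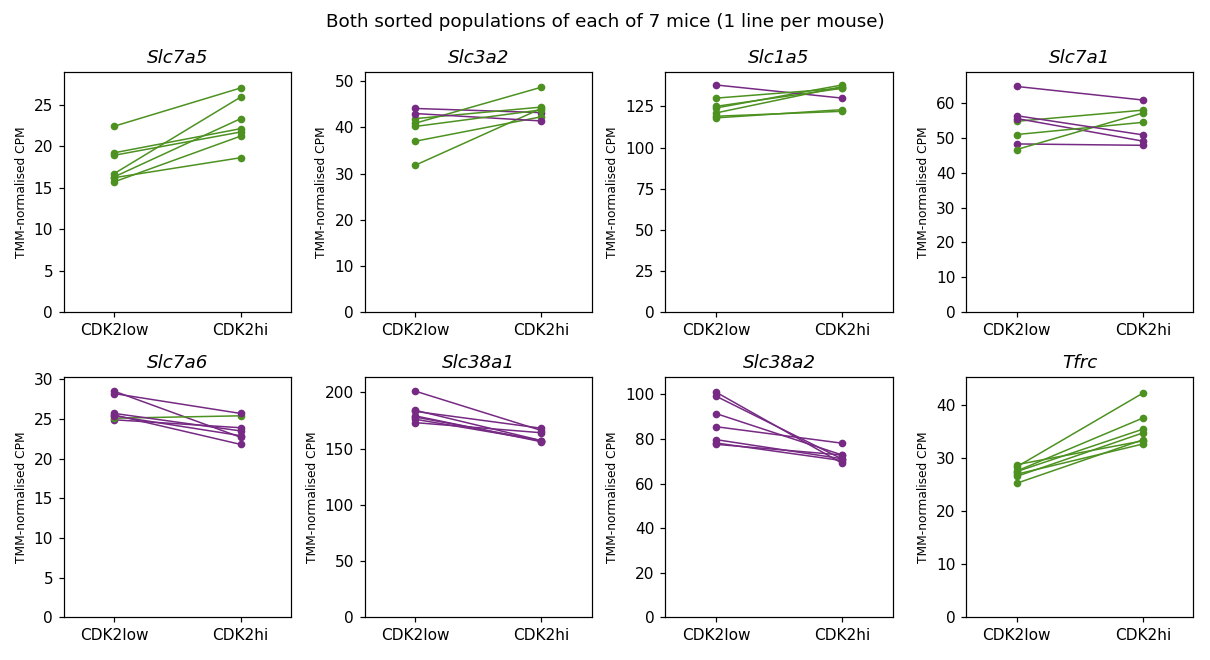
TMM-normalised CPM of each gene (y axis, linear, from 0) in CDK2low and CDK2hi cells (x axis) of 7 mice, with 1 line per mouse, green where CDK2hi is higher and purple where it is lower. *Slc7a5* and *Tfrc* rise in 7 of 7 mice and *Slc38a1* and *Slc38a2* fall in 7 of 7, while the lines of *Slc7a1* cross.

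**Figure D4:**
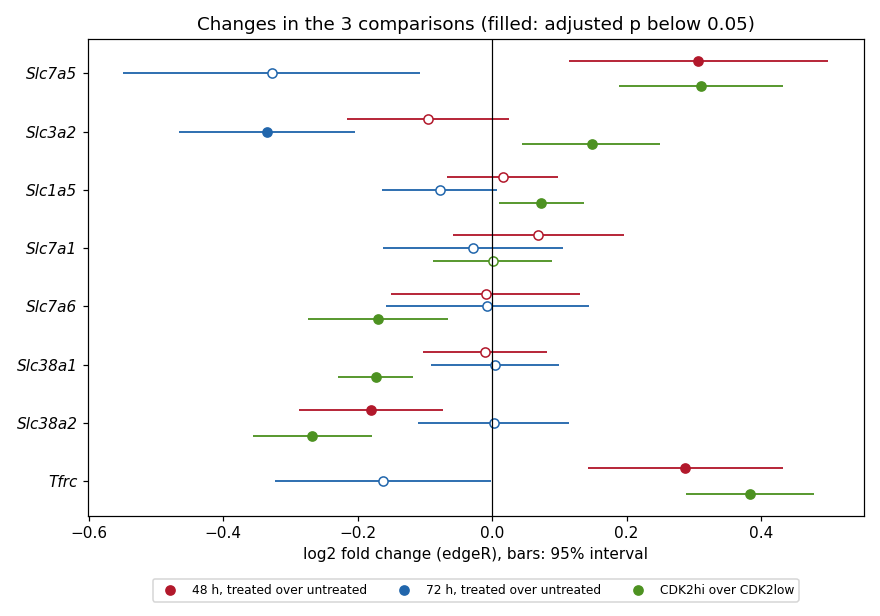
Log2 fold change of each gene with bars for its approximate 95% interval, 1.96 SE on each side (x axis), for treated over untreated mice at 48 h (red) and 72 h (blue) and for CDK2hi over CDK2low cells (green), with filled points for adjusted p below 0.05. The bar of *Tfrc* at 72 h just excludes 0, although its unadjusted p was 0.0556 by edgeR. *Slc7a5* and *Tfrc* are to the right of 0 at 48 h and in CDK2hi cells, *Slc38a2* is to the left in both, and *Slc3a2* is to the left at 72 h and to the right in CDK2hi cells.

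The phase shares differed in both contrasts, at 48 h for all 3 phases and in the CDK2 sort for G1 and G2M. Cells scored as G1 (Seurat's CellCycleScoring, in which cells without S or G2M scores are G1) were 16.8% to 25% of cells in treated mice and 45.8% to 56.7% in untreated mice at 48 h, and 12.7% to 19.6% of CDK2hi and 52.7% to 63.2% of CDK2low cells. G2M cells were 46% to 57.1% of CDK2hi and 6.57% to 12.4% of CDK2low cells, while S cells were 34% ± 3.6 and 32.7% ± 2.82 (SD, n = 7) and overlapped. At 48 h S cells were 36.5% ± 2.5 in treated and 21.6% ± 2.57 in untreated mice, and G2M cells 42.7% ± 2.82 and 26.7% ± 4.12. Cells scored as DZ were 68.6% ± 2.26 and 36.6% ± 3.91 in treated and untreated mice at 48 h, and 56.3% ± 3.56 and 49.7% ± 4.23 of CDK2hi and CDK2low cells. Phases and zones were scored in each library separately, so CDK2hi and CDK2low cells need not have been divided alike. The DZ genes summed to a median of 2080 CPM in CDK2hi and 1070 CPM in CDK2low cells, and the LZ genes to 566 and 1150 CPM. The part of separate scoring in the similar S and DZ shares was not tested. Of the kept cells of a library, 5.92% to 9.05% had DZ and LZ scores within 0.05 of each other, and closeness to a limit between phases was not counted.

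Several members followed the phase in untreated mice, where treatment had no part. *Tfrc* was highest in S-phase cells in 23 of 23 mice (23.4 ± 5.35 CPM in G1, 58.1 ± 10.8 in S and 33.7 ± 5.56 in G2M cells, SD, n = 23). *Slc7a5* was highest in S in 21 of 23 (18.8 ± 4.98, 36.8 ± 7.58 and 24.7 ± 6.4 CPM), and *Slc7a1* in 22 of 23 (51.1 ± 13.2, 71.3 ± 12.1 and 48.1 ± 12.5 CPM). These 3 genes share an S-phase peak, of 2.48-fold over G1 for *Tfrc*, 1.96-fold for *Slc7a5* and 1.4-fold for *Slc7a1*. *Slc38a1* was lower in G2M than in S cells in 22 of 23 mice, with 186 ± 19.1 CPM in G1, 186 ± 18.8 in S and 155 ± 13.6 in G2M cells. *Slc1a5* was nearly level, at 159, 169 and 167 CPM. Phases were called from other genes and no test was made across them. The share of all genes highest in S cells was not taken, so the S-phase peak is not read as particular to these genes.

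By zone, most of the amino-acid carriers were lower in DZ than in LZ cells of untreated mice. No test was made and no share of all genes was taken. The DZ score was built from *Cxcr4*, *Gcsam*, *Hmmr*, *Stmn1*, *Foxo1*, *Polh*, *Ccnb2* and *Aurka*, and zones can differ in their phases. In untreated mice *Slc38a2* had 66.1 ± 11.8 CPM in DZ and 96.6 ± 22 CPM in LZ cells, *Slc3a2* 45.8 ± 8.18 and 63.8 ± 10.5, and *Slc7a6* 21.5 ± 3.19 and 29.3 ± 5.16. Each of these 3 was lower in DZ cells in 23 of 23 mice, and *Slc7a1* in 22 of 23. *Slc1a5* was higher in DZ cells in 17 of 23, while *Tfrc* was divided (12 of 23) and *Slc7a5* was higher in DZ cells in 7 of 23. *Slc38a1* was higher in DZ cells in 4 of 23, but in 7 of 7 CDK2low samples. Split by phase too, *Slc1a5* had 155 and 161 CPM in DZ and LZ cells in G1, 167 and 170 in S and 172 and 134 in G2M. *Slc7a5* had 16.8 and 19.3, 35.8 and 37.7, and 21.3 and 45 CPM. *Slc3a2* had 40.9 and 61.7, 49.1 and 64.3, and 44.7 and 63.8 CPM, so its mean was lower in DZ cells within each phase. Only 15 mice had enough LZ cells in G2M.

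Within a phase, 1 call of a member remained at 48 h, and the fold changes of *Slc7a5* and *Tfrc* were near 0 in S cells but not in G2M cells. In S cells edgeR called no member, where 11% of 9093 genes were called, 1 of the 8 (*Slc3a2*) had an unadjusted p under 0.05, and *Slc7a5*, *Tfrc* and *Slc38a2* had log2 fold changes of -0.007, -0.06 and -0.075. In G2M cells edgeR called no member, where 18.9% of 9187 genes were called, 1 of the 8 (*Slc38a2*) had an unadjusted p under 0.05, and *Slc7a5* had 0.23 (adjusted p = 0.165 by edgeR), *Tfrc* 0.18 (adjusted p = 0.228 by edgeR) and *Slc38a2* -0.21 (adjusted p = 0.0657 by edgeR), against 0.31, 0.29 and -0.18 in all cells. DESeq2 also called 0 of the 8 in S and in G2M cells. In G1 cells *Tfrc* alone was called, at 0.50 (29.3 ± 6.76 against 20.7 ± 3.79 CPM, adjusted p = 0.0355 by edgeR), where 9.04% of 8889 genes were. There *Slc7a5* had 0.067 and *Slc38a2* -0.07 (adjusted p = 0.895 and 0.703 by edgeR). The call of *Tfrc* was lost in 3 of 5 alternatives, namely without the experiment term and in either experiment alone (log2 fold changes over the 5 from 0.45 to 0.54, adjusted p from 0.0345 to 0.662 by edgeR or DESeq2). Fewer UMIs stand behind each phase than behind all cells, and these values do not show that the phases were alike in treated and untreated mice. In the CDK2 sort the phases differed. In G1 cells alone, *Tfrc* (0.65, adjusted p = 1.44e-06 by edgeR), *Slc7a5* (0.44, adjusted p = 0.0036 by edgeR) and *Slc38a2* (-0.49, adjusted p = 1.1e-07 by edgeR) were farther apart than in all cells. G1 cells were a minority of CDK2hi cells. All phases were scored in each library separately, so cells of the same phase need not be alike in CDK2hi and CDK2low samples. This limits every comparison of CDK2hi with CDK2low cells within a phase. The difference between G1 cells and all cells was not tested. The values in S and G2M cells are CPM without TMM factors, unlike the fold changes in all cells and in G1 cells. In S cells, with no test made, *Tfrc* had 44.5 ± 5.71 CPM in CDK2hi and 37.8 ± 2.09 CPM in CDK2low cells and *Slc38a2* 67.7 ± 2.24 and 101 ± 14.3, while *Slc7a5* was nearly level on this scale (25 ± 5.37 and 24.1 ± 5.14). In G2M cells, of which the CDK2low population held few, *Tfrc* had 25 ± 2.95 and 29.2 ± 3.48 CPM, *Slc38a2* 68.3 ± 4.45 and 63.8 ± 20.6, and *Slc7a5* 18.6 ± 2.5 and 17.7 ± 6.75. For *Tfrc* and *Slc38a2* this is the other way round from the TMM-scaled values of all cells, and the part of the scale in this was not tested.

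**Figure D5:**
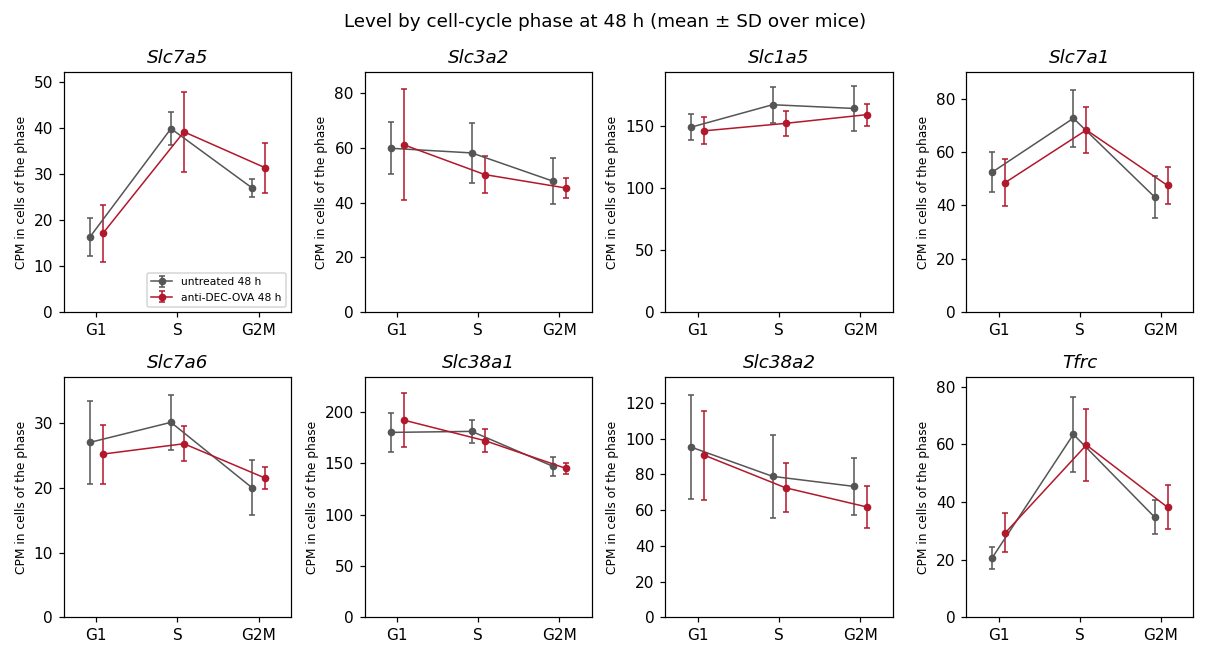
CPM, without TMM factors, of each gene in cells of 1 phase (y axis, linear, from 0; x axis, G1, S and G2M) at 48 h in 6 untreated (grey) and 9 anti-DEC-OVA-treated (red) mice, as mean ± SD over mice. *Tfrc*, *Slc7a5* and *Slc7a1* peak in S in both groups and the lines nearly coincide there, while *Tfrc* in G1 is 29.3 CPM in treated and 20.7 CPM in untreated mice, a difference whose call was lost in 3 of 5 alternatives.

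Markers of other cell types and zones also differed between treated and untreated mice. At 48 h, 6 naive or memory B cell genes summed to 102 to 202 CPM in treated and 249 to 427 CPM in untreated mice, 10 LZ genes to 418 to 574 and 861 to 1060 CPM, and 6 plasma cell genes to 1160 to 2050 and 776 to 1540 CPM. The 6 T cell genes summed to 0.479 to 4.55 and 5.83 to 10.2 CPM and 5 B lineage genes to 3620 to 4750 and 4920 to 6350 CPM, with no overlap in either list. The 8 DZ genes summed to 1860 to 2020 and 1490 to 1630 CPM. In CDK2hi and CDK2low cells the naive or memory genes summed to 101 to 182 and 335 to 536 CPM, the LZ genes to 476 to 623 and 1020 to 1330 CPM, the DZ genes to 2010 to 2130 and 1010 to 1170 CPM and the B lineage genes to 3950 to 4540 and 5900 to 6370 CPM. Apart from 1 T cell gene in CDK2hi cells, no gene of these lists was at 0 in a group. The T cell genes reached 1.5 CPM in CDK2hi cells and 55.2 CPM in CDK2low cells (medians 0.595 and 2.21), and 6 macrophage or dendritic cell genes 2.46 and 18 CPM (medians 0.713 and 4.25). Cells in which the B1-8hi receptor pairing was recovered were 70% to 77% of the cells of treated mice and 62% to 67.5% of untreated mice at 48 h in the larger experiment, and 52.9% to 57.5% and 34.8% to 38.9% in the smaller one. Cells with missing contigs or extra heavy-chain contigs counted as lacking the pairing, so these shares also depend on contig recovery. They are not shares of cells by origin. The part of these differences in the members' changes was not tested, beyond the B1-8hi cells taken alone, in which *Slc7a5* and *Tfrc* still passed at 48 h.

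Related pathways were read from 5 gene lists. Of 22 other plasma-membrane and lysosomal amino-acid transporters, 14 were tested at 48 h. None rose and 4 fell (median log2 fold change -0.14, against -0.002 over all genes, of which 24.7% rose and 22.5% fell): *Slc38a6* (-0.52), *Slc38a9* (-0.46), the lysosomal arginine sensor, *Slc7a7* (-0.45) and *Slc15a4* (-0.39), an endolysosomal histidine and peptide carrier. In CDK2hi cells 2 of these 14 rose and 11 fell (median -0.38, against -0.024 over all genes, of which 36.4% rose and 38.6% fell).

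Of 22 iron genes, 16 were tested at 48 h, 3 rose and 2 fell (median -0.02), where 24.7% of all genes were higher and 22.5% lower. The difference in share was not tested and rests on few genes. *Pcbp1*, an iron chaperone, rose by 0.43, while *Mcoln1* (-0.33), a lysosomal iron and calcium channel, and *Slc25a37* (-0.31), a mitochondrial iron importer, fell. In CDK2hi cells 5 of 17 rose and 5 fell, against 36.4% and 38.6% of all genes.

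Of 26 tested genes of amino-acid sensing by mTORC1, 6 rose and 3 fell at 48 h (median -0.04), where 24.7% and 22.5% of all genes did, so the list did not stand above the share of all genes. Among the called genes were *Rps6kb1* (0.24), the S6 kinase, and *Rheb* (0.21), the activator of mTORC1, which rose, and *Sesn3* (-0.26) and *Sesn1* (-0.24), of the leucine-sensing sestrin family, which fell. Of 19 tested genes of the ATF4 and amino-acid response, 6 rose and 3 fell (median 0.13), with *Shmt2* (0.57) and *Psat1* (0.52), enzymes of serine and one-carbon synthesis, higher and the stress genes *Ddit4* (-0.86) and *Ddit3* (-0.57) lower. Of 20 aminoacyl-tRNA synthetases, which load amino acids onto tRNA, 16 rose and 0 fell (median 0.22), *Eprs* and *Mars1* by 0.28 each. The list was meant for cytosolic enzymes but also names *Fars2*, whose product is mitochondrial. Within phases, edgeR called 10 of the 20 higher in G2M cells, 1 in S cells and none in G1 cells (medians 0.19, 0.07 and 0.08), where 10.2%, 5.72% and 4.74% of all genes rose. The calls over all cells at 48 h are from 1 edgeR fit. In CDK2hi cells 14 synthetases rose and 3 fell (median 0.12), the ATF4 list split 9 to 7 and the mTORC1 list 7 to 11, where 36.4% of all genes rose and 38.6% fell. At 72 h, 1 of 20 synthetases was higher, as were 5.05% of all genes.

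Over the 39 mice of the time course, with each experiment's mean removed, the members were compared with 6817 genes by Pearson's r of log2 CPM. The mice share libraries, depth and treatment, so r is a description. *Slc7a5* was most like *Phgdh* (0.86), the entry enzyme of serine synthesis, *Aprt* (0.85), of purine salvage, and *Haus4* (0.84), of the mitotic spindle. *Tfrc* was most like *Rpl41*, *Pitrm1* and *Rpl13* (0.81 each). *Slc38a1* was most like *Med13l* (0.77), *Malt1* (0.71) and *St6gal1* (0.7), and *Slc38a2* like *Atf7ip* (0.71), *Dnajc14* (0.7) and *Cacna1i* (0.69). *Slc3a2* was most like *Zeb2* (0.71), *Snx5* (0.7) and *Ergic1* (0.68). Among the genes most like *Slc1a5* were *Slamf6* (0.65) and *Pex6* (0.65), *Slc7a1* was most like *Tcf20* (0.65), *mt-Atp6* (0.58) and *Gtf2h2* (0.58), and *Slc7a6* like *Sbno1* (0.65), *Sil1* (0.61) and *Ptk2* (0.55).

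Among the members themselves, *Slc7a5* and *Tfrc* had the highest r (0.72), then *Slc1a5* and *Slc38a1* (0.62) and *Slc38a1* and *Slc38a2* (0.46). *Slc7a5* and *Slc3a2*, whose products form 1 transporter, had 0.37. *Slc38a2* had weak negative values with *Tfrc* (-0.31) and *Slc7a5* (-0.28).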

How the data were processed

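Per the file headers and methods, the authors made the deposited UMI counts per gene and cell and the hashtag counts with Cell Ranger 8.0.1 on mm39, from Chromium 5′ v2 or v3 libraries, without normalization. The submitters' processing notes also name Cell Ranger 6.0.1 and Seurat 5.1.0. The deposited contigs of B cell receptors served to mark B1-8hi cells, and days 7, 9 and 10 of the list of mice were read as 0, 48 and 72 h, and C and N as CDK2hi and CDK2low.

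From these counts, cells were assigned to mice with HTODemux (Seurat 5.3.0, quantile 0.99), and kept if they had 200 or more genes and less than 10% of UMIs from mitochondrial genes: 13698 and 9932 in the larger and smaller experiments and 7389 CDK2hi and 4368 CDK2low cells. The limit on mitochondrial UMIs removed 370, 3063, 300 and 93 assigned cells. Cells with hashtags of several mice were left out, and doublets of 1 mouse were not searched for. In the CDK2 sort, 2 listed hashtags gave no signal and their mice were left out, and 1 hashtag outside the list had signal in each library and its cells were not used, so the list may be off for these mice. The UMIs of a mouse's cells were added up, filtered by filterByExpr and scaled by TMM factors. Tests were edgeR's quasi-likelihood F test (version 4.0.16 under R 4.3.3) with the experiment, or in the CDK2 sort the mouse, as a further term, and p-values were adjusted by Benjamini-Hochberg over all genes tested, with a threshold of 0.05. SEs are the fold change over the square root of F, and intervals are 1.96 SE. These intervals are a normal approximation and somewhat narrower than the F test implies. Thinned shares are expected shares after drawing 2000 UMIs per cell. Likeness used genes above an average log2 CPM of 4. The CDK2hi and CDK2low samples of a mouse were paired by the mouse name in the lists of both libraries. Hashtags assigned the cells to these names. Deviations of paired samples from the group means correlated at 0.196 to 0.664, and 7 of 7 matched their own mouse best. The p-values measure the spread between mice of 1 library or a pair of libraries. On data simulated for the 48 h comparison (10215 genes), the test recovered 68.7% of genes changed 1.25-fold, 88.1% at 1.5-fold and 97% at 2-fold, with 3 false calls. For the CDK2 sort (10111 genes) it recovered 86.6%, 95.5% and 100%, with 9 false calls. In each simulation 67, 67 and 66 genes were changed at these folds, with no effect of experiment or mouse. In the data 47.2% and 75% of genes were called, so these rates need not hold there.

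The 8 genes and all gene lists were chosen with earlier results of these data known. Named were all 8 members, the 2 list genes with the largest rise and the 2 with the largest fall at 48 h (average log2 CPM above 3), and the 3 genes most like each member; *Slc7a7* and *Slc15a4* were named after their values were seen, and 2 genes that the rule picks are not reported here. Alternatives were RLE factors, DESeq2 1.42.0, no low-count filter, no filter on cells, no experiment term, each experiment alone, B1-8hi cells, G1 cells, assignment by the highest hashtags, no replicate block and leaving out each mouse of the CDK2 sort.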

Additional observations from a re-analysis of the deposited data

Results flagged for a closer look

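The treatment effect differed between 48 h and 72 h by the interaction term of the edgeR fit for *Slc7a5* (0.635 log2 units), *Tfrc* (0.449) and *Slc3a2* (0.239), as described above.

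In 8 of 56 groups of 4 to 10 mice, 1 mouse lay apart by Dixon's ratio, the gap to the nearest mouse over the range of the group on log2 CPM with each experiment's mean removed, and chance gives about 1 in 20. For *Slc3a2* the ratio was 0.569 in CDK2hi cells, where 1 mouse had 48.7 CPM. In untreated mice at 48 h it was 0.701 for *Slc3a2*, whose lowest mouse, in the smaller experiment, had 39.3 CPM, and 0.729 for *Slc1a5*, whose lowest mouse, in the larger experiment, had 146 CPM. For *Slc7a6* it was 0.517 at 0 h, with the highest mouse at 32 CPM. For *Slc38a1* it was 0.589 in CDK2low cells (201 CPM) and 0.534 in treated mice at 48 h (174 CPM). For *Slc38a2* it was 0.574 in CDK2hi cells (78.1 CPM) and 0.544 in untreated mice at 72 h (81.7 CPM).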

How the results depend on the processing

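Over the alternatives, 606 member values stayed on their side of the threshold (the sign of values called in neither fit was not counted and turned for some, such as *Tfrc* at 72 h and *Slc3a2* at 48 h in the smaller experiment alone), 45 lost and 12 gained a call in the same direction, and 1 called value turned its sign: *Slc7a6* in the CDK2 sort went to a log2 fold change of 0.084 (adjusted p = 0.529 by edgeR) in G1 cells only. In the CDK2 sort *Slc7a5*, *Tfrc* and *Slc38a2* held in 14 of 14 alternatives. *Slc38a1* was lost in G1 cells (adjusted p = 0.0606 by edgeR). The call of *Slc1a5* was lost without mouse 1, 3, 4, 5 or 6 (adjusted p = 0.0617 to 0.187 by edgeR). Without each mouse in turn, 5 to 7 members and 7195 to 7555 genes were called. With no replicate block 6 members and 7047 genes were called. DESeq2 called 4 of 8 members and 6578 of 10111 genes, and G1 cells gave 3 members and 5554 of 8949 genes.

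Leaving out the experiment term gave 1 member and 2641 genes at 48 h, 0 and 207 at 72 h, 3142 genes for treated mice at 48 h against 72 h, 1 member and 1234 genes for the interaction, 4 genes for untreated mice at 48 h against 0 h and 78 at 72 h against 0 h. The smaller experiment alone gave 0 members and 2117 genes at 48 h, 0 and 18 at 72 h, 1 and 2690 for treated mice at 48 h against 72 h, 0 and 852 for the interaction, and 0 and 4 genes for the untreated mice. At 72 h DESeq2 called 2 members and 1042 of 10215 genes, the highest hashtags 2 and 958 of 10286, and the larger experiment alone 3 and 826 of 10128. For untreated mice at 72 h against 0 h, B1-8hi cells, DESeq2 and RLE factors each called 1 member (and 371, 497 and 417 genes), and at 48 h against 0 h they and no low-count filter gave 6 (B1-8hi), 25 (DESeq2) and 19 (no filter) genes. B1-8hi cells gave 2096 genes for the interaction. Within phases, the larger experiment, no experiment term and the smaller experiment gave 528, 122 and 15 genes in G1, 265, 146 and 437 in S and 952, 403 and 193 in G2M cells, and *Tfrc* in G1 cells was called in none of them, leaving 0 members. The causes were not tested. Depth limits the genes of low level: *Slc7a5* rests on 37 to 408 UMIs per mouse of the time course, *Tfrc* on 75 to 791 and *Slc38a1* on 398 to 2186.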
